A study of Homo sapiens with 2 samples.

Results

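A set of 10 genes of pluripotent and embryonal carcinoma cells was followed in TCam-2 cells: SALL4, UTF1, DPPA2, DPPA4, L1TD1, ZFP42, FOXD3, FGF4, TNFRSF8 and TRIM71. The 10 genes were chosen by name, with earlier results of these data known but no threshold on a measured value. Each matched 1 of the 62700 genes of the gene table. TCam-2, an established human line, was grown from a seminoma, a germ cell tumour of the testis. The series holds 1 group, TCam-2 cells transduced with FLAG-tagged DDX53, a DEAD-box RNA helicase, in 2 replicate libraries of polyadenylated RNA. Per the labels, both libraries come from cells with the construct. The study's controls, wild-type cells and cells with GFP-FLAG, were not analysed here, so no level below can be read as an effect of DDX53. The labels do not say whether the replicates came from separate cultures. The p-values below compare 1 library with 1 library, so they set a difference against counting error only. They hold no estimate of the spread between replicates.

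Pluripotency is the capacity of early embryonic cells to form all cell types of the body, and it is held by a network around the transcription factors OCT4 (POU5F1), NANOG and SOX2. Germ cell tumours keep parts of that network. Seminoma resembles primordial germ cells and runs SOX17 in place of SOX2, whereas embryonal carcinoma resembles the pluripotent epiblast and stains for SOX2 and CD30, the product of TNFRSF8.

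Replicate 1 had 24137664 reads in genes, and replicate 2 had 22198929. Levels per gene are given as CPM, reads scaled to the library total. CPM is not divided by length, so CPM values of different genes side by side do not give their order per length. The order per length is read from TPM, which is divided by transcript length. DDX53 itself received 146 and 147 reads, or 6.05 and 6.62 CPM. With no control library here, these reads cannot be assigned to the construct or to the cells' own gene. Detection required at least 1 CPM in each library. By that rule 8 of the 10 genes were detected, where 61.7% of all protein-coding genes and 21.7% of all genes were. Because of how the 10 genes were chosen, these shares are a background and not a test. FOXD3 and ZFP42 were not detected. Together the 10 genes took 0.182% of the reads in replicate 1 and 0.167% in replicate 2, and L1TD1 alone gave 55.4% and 55.7% of those reads. In bulk RNA a low level in all cells and a higher level in fewer cells cannot be told apart.

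**Figure D1:**
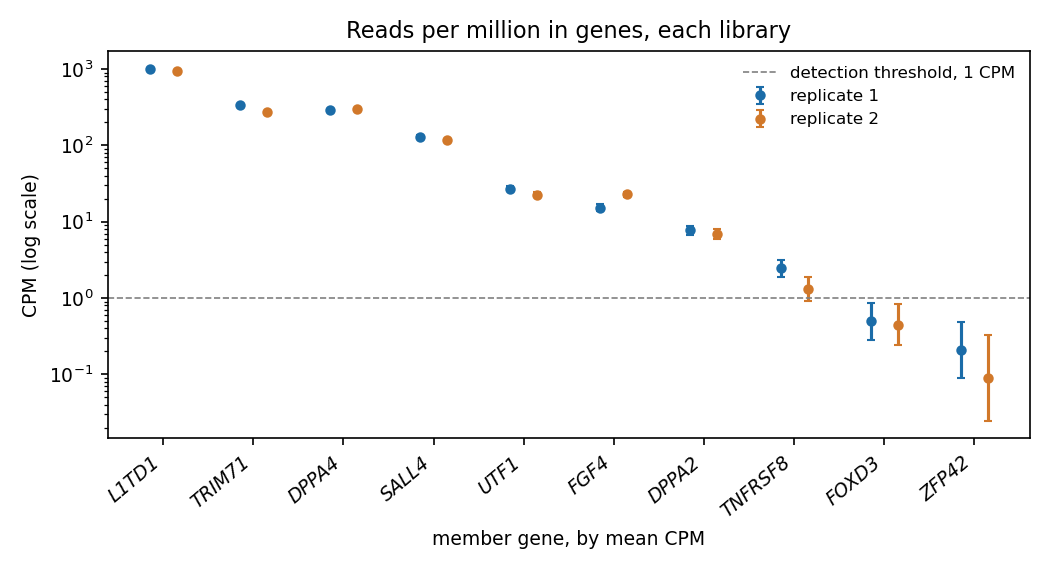
CPM (log axis) for the 10 genes in replicate 1 and replicate 2, ordered by mean CPM; bars are 95% Wilson intervals, which cover counting error only. L1TD1 stood at 1008 and 930.1 CPM, and FOXD3 and ZFP42 lay below the dashed threshold of 1 CPM in both libraries.

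Among the transcription and chromatin factors, the neighbouring genes DPPA2 and DPPA4 were both detected, at very unequal levels. Their products bind each other through related domains and keep developmental promoters accessible in pluripotent cells. Both lie on the minus strand of chromosome 3 (GRCh38), DPPA2 at 109293788 to 109316517 and DPPA4 at 109326141 to 109337572, with 9623 bases between them. DPPA4 (ENSG00000121570.13) had 7009 reads, or 290.4 CPM, in replicate 1 and 6640 reads, or 299.1 CPM, in replicate 2. DPPA2 (ENSG00000163530.4) had 186 reads, or 7.71 CPM, and 154 reads, or 6.94 CPM. In TPM, DPPA4 was at 172 ± 2.39 and DPPA2 at 6.92 ± 0.460 (SD, n = 2 each). This 24.9-fold difference in level within the pair was far above the spread between the libraries, but its size depended on the measure. In mean CPM per kb of the transcript with the highest TPM, DPPA4 was at 104.6 and DPPA2 at 5.29. Per kb of merged exons, DPPA4 was at 59.0 and DPPA2 at 5.29.

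SALL4 (ENSG00000101115.13; chromosome 20, 51782331 to 51802520, minus strand) encodes a zinc finger factor that is used as a marker of germ cell tumours. It had 3153 and 2601 reads, or 130.6 and 117.2 CPM, and its mean TPM was above that of 80.5% of protein-coding genes. Of its relatives in the spalt family, SALL2 was at 28.5 CPM in each library, SALL1 at 4.43 and 3.87 CPM, and SALL3 at 1.24 and 0.991 CPM. In TPM the order was the same, with SALL4 at 32.1 ± 2.69 and SALL2 at 8.10 ± 0.183 (SD, n = 2 each).

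UTF1 (ENSG00000171794.4; chromosome 10, 133230274 to 133231558, plus strand) encodes a chromatin-bound factor of undifferentiated cells and is a target of OCT4. Its 653 and 504 reads made 27.1 and 22.7 CPM. It has 2 exons and the shortest transcript among the leading transcripts of the 10 genes, 1157 bases, and its level per length was 119 and 112 TPM.

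FOXD3 and ZFP42 were near the limit of what the depth can show. FOXD3 (ENSG00000187140.6; chromosome 1, 63323041 to 63325126, plus strand) is a gene of 1 exon for a forkhead factor of pluripotent cells and the neural crest. Its 12 reads in replicate 1 made 0.497 CPM (95% Wilson interval, 0.284 to 0.869). Its 10 reads in replicate 2 made 0.450 CPM (0.245 to 0.829). Its relative FOXD1 was at 16.3 and 16.4 CPM, while FOXD2 and FOXD4 had 3 to 5 reads in each library. The antisense gene FOXD3-AS1 shares 179 exonic bases with FOXD3 on the opposite strand, and it received 27 and 12 reads. The libraries were strand-specific per the labels, but the counting is not described, so reads of this pair are uncertain. ZFP42 (ENSG00000179059.10; chromosome 4, 187995771 to 188005050, plus strand), also known as REX1, encodes a zinc finger factor of the YY1 family and is a classical marker of pluripotent stem cells. Its 5 reads in replicate 1 made 0.207 CPM (95% Wilson interval, 0.0885 to 0.485). Its 2 reads in replicate 2 made 0.0901 CPM (0.0247 to 0.329). Its relative YY1 was at 173.9 and 164.9 CPM and YY2 had 3 and 4 reads.

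The promoters of 4 of these factors are printed to show the CpG content of the neighbours DPPA4 and DPPA2, of UTF1, which was detected, and of ZFP42, which was not. Promoters, motifs and microRNA matches were examined after the levels of the 10 genes had been seen. Each line gives the 250 bases before the RefSeq start (GRCh38.p14), read 5′ to 3′ on the strand of the gene, with every CG in capitals. The windows are chr3:109337547-109337796 (minus strand) for DPPA4, chr3:109316518-109316767 (minus strand) for DPPA2, chr10:133229967-133230216 (plus strand) for UTF1 and chr4:187995521-187995770 (plus strand) for ZFP42.
DPPA4: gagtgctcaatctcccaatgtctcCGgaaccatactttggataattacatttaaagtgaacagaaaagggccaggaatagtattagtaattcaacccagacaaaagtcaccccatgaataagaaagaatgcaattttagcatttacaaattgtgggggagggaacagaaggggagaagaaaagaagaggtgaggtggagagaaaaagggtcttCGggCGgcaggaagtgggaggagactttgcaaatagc
DPPA2: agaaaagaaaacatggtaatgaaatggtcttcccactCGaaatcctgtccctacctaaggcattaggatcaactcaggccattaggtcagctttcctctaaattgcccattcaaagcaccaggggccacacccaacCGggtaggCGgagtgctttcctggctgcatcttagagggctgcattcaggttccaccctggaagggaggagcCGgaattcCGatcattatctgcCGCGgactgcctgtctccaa
UTF1: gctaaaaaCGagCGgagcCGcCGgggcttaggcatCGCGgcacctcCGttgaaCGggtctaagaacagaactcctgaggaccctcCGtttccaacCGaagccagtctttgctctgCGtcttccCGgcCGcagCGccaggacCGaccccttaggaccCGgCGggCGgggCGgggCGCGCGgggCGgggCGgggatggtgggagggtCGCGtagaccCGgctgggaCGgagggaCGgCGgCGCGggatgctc
ZFP42: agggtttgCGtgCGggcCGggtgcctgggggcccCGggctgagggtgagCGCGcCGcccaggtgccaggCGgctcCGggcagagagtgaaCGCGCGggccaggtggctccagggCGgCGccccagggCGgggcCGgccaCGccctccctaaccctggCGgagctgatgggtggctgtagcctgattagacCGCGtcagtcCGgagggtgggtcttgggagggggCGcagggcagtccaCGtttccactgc
Over the full window of 300 bases, which adds 50 bases after the start, UTF1 held 39 CG, more than 91.3% of all 35116 promoters. FOXD3 held 29, TRIM71 27, ZFP42 24, L1TD1 14, TNFRSF8 11, DPPA2 7 and DPPA4 5, against a median of 14 over all promoters. The undetected genes FOXD3 and ZFP42 thus had more CG than DPPA4 and fewer than UTF1. Methylation of these promoters was not measured. RefSeq promoters were matched for 8 of the 10 genes, all but SALL4 and FGF4. The start site printed here lay 0 to 74 bases from the GENCODE gene start in 7 of them and 474 bases away in FOXD3.

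Short motifs were counted in the same windows on both strands. The octamer bound by OCT4 (ATGCAAAT) and a SOX motif (ACAATGG) were in 0 of the 8 promoters, where 1.77% and 3.16% of all promoters held them. A TATA motif (TATAAA) was also in 0 of the 8, with 11.5% of all promoters holding it. The YY1-type motif CCATNTT was in DPPA2 and DPPA4 and in 15.6% of all promoters. CCAAT was in DPPA4, L1TD1, ZFP42 and TNFRSF8 and in 34.6% of all promoters. GGGCGG was in UTF1, DPPA4, L1TD1, ZFP42, FOXD3 and TNFRSF8 and in 45.0% of all promoters, and the E-box CACGTG was in FOXD3 and TNFRSF8 and in 7.26% of them. These are matches of letters in one window, and distal enhancers were not searched.

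Of the genes for RNA-binding proteins, L1TD1 had a mean TPM above that of 97.9% of protein-coding genes and TRIM71 above that of 85.2%. L1TD1 (ENSG00000240563.2; chromosome 1, 62194831 to 62212328, plus strand) encodes an RNA-binding protein derived from a LINE-1 element, with which LIN28A is found in complexes. It had 24324 reads, or 1008 CPM, in replicate 1 and 20648 reads, or 930.1 CPM, in replicate 2. Its mean level was 327 ± 21.9 TPM (SD, n = 2). An annotated Y RNA shares 110 exonic bases with L1TD1 on the same strand and had 0 reads. TRIM71 (ENSG00000206557.6; chromosome 3, 32818018 to 32897826, plus strand), also known as LIN41, encodes a repressor of messenger RNAs. It had 8102 reads, or 335.7 CPM, and 5995 reads, or 270.1 CPM. Of its relatives with an NHL domain, TRIM2 was at 56.4 CPM, TRIM32 at 16.6 CPM and TRIM3 at 7.58 CPM on average. In mean TPM, TRIM71 was at 45.0, TRIM2 at 6.71, TRIM32 at 5.92 and TRIM3 at 4.27.

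TRIM71 is a textbook target of the microRNA let-7, which LIN28A and LIN28B keep from maturing. The mature let-7a and the places in the TRIM71 3′ UTR that pair with its seed are printed because TRIM71 held more of these matches than any other transcript searched. Capitals mark the seed, bases 2 to 8, in let-7a and its match CTACCTC in TRIM71 (chromosome 3, plus strand, GRCh38).
hsa-let-7a-5p: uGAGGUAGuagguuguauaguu
TRIM71 match 1, chr3:32891968-32891990: aacattgcttaagtcCTACCTCa
TRIM71 match 2, chr3:32892048-32892070: agtgataatttctatCTACCTCa
TRIM71 match 3, chr3:32894501-32894523: tgtaggtcagagataCTACCTCt
TRIM71 match 4, chr3:32895805-32895827: gcttttgctgagtttCTACCTCa
TRIM71 match 5, chr3:32895828-32895850: cttgtggcaagtcatCTACCTCa
TRIM71 match 6, chr3:32895903-32895925: ggtgggagtgggaagCTACCTCt
The matches fell into a proximal pair, an isolated match and a distal group of 3. SALL4 and FGF4 held 1 match each, and the leading transcripts of the other 7 genes held 0. Of 11311 leading coding transcripts of at least 1 TPM, 1 for each gene, 7.90% had a match in the 3′ UTR, and 1 of them, TRIM71 itself, had as many as 6. The 3′ UTR of TRIM71 is long, at 6015 bases, but 2.02% of those transcripts had a longer one. LIN28A was at 487 and 448.2 CPM and LIN28B at 129.6 and 130.2 CPM. Mature microRNAs were not measured in these polyadenylated libraries, so let-7 itself has no value here.

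Of the members that encode signalling proteins, FGF4 had a mean TPM above that of 60.8% of protein-coding genes and TNFRSF8 above that of 37.5%. FGF4 (ENSG00000075388.4; chromosome 11, 69771016 to 69775403, minus strand) is a secreted ligand that drives ERK signalling through FGF receptors in early embryonic cells. Its 367 reads in replicate 1 made 15.2 CPM (95% Wilson interval, 13.7 to 16.8). Its 505 reads in replicate 2 made 22.7 CPM (20.8 to 24.8), so the intervals did not overlap. Of the 20 FGF ligand genes examined, 5 were detected, in order of mean CPM: FGF13, FGF16, FGF4, FGF12 and FGF2. FGF1, FGF5 and FGF6 had 0 reads. FGF13 and FGF12 belong to the intracellular members of the family. In TPM, FGF13 at 103 ± 4.31 and FGF16 at 24.8 ± 2.17 (SD, n = 2 each) were above FGF4 at 7.55 and 10.5. FGF12 at 9.40 ± 0.251 TPM lay between the values of FGF4, and FGF2 was at 2.55 ± 0.208 TPM (SD, n = 2 each). The flanking genes FGF3 and FGF19 had 1 and 0 reads and 9 and 6 reads. All 4 FGF receptor genes were detected, FGFR3 at 73.4 ± 3.57 TPM, FGFR4 at 46.8 ± 3.98 TPM, FGFR1 at 38.8 ± 0.538 TPM and FGFR2 at 17.2 ± 0.320 TPM (SD, n = 2 each). Among genes that ERK signalling switches on, ETV4 was at 63.6 TPM, ETV5 at 34.1 TPM and SPRY4 at 20.5 TPM on average, while DUSP6 had 22 and 23 reads and was not detected.

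TNFRSF8 (ENSG00000120949.15; chromosome 1, 12063377 to 12144207, plus strand) encodes CD30, the receptor used to tell embryonal carcinoma from seminoma in tissue sections. It had 59 reads, or 2.44 CPM (95% Wilson interval, 1.90 to 3.15), in replicate 1 and 29 reads, or 1.31 CPM (0.910 to 1.88), in replicate 2. The lower bound in replicate 2 lay under the threshold. TNFSF8, the gene of its ligand, had 4 and 5 reads and was not detected. Of the adaptors that bind CD30, TRAF2 was at 32.6 and 31.8 CPM, TRAF3 at 12.8 and 14.8 CPM and TRAF5 at 1.99 and 2.75 CPM. TRAF1, at 0.539 and 0.496 CPM, was not detected.

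Per length, L1TD1 led and ZFP42 came last. By TPM in replicates 1 and 2 the order was L1TD1 (343 and 312), DPPA4 (170 and 174), UTF1 (119 and 112), TRIM71 (50.1 and 39.9), SALL4 (34.0 and 30.2), FGF4 (7.55 and 10.5), DPPA2 (7.24 and 6.59), TNFRSF8 (1.14 and 0.490), FOXD3 (0.497 and 0.429) and ZFP42 (0.128 and 0.0540). Neighbours in this order did not overlap between libraries, except TNFRSF8 and FOXD3. FGF4 and DPPA2 were apart by little, with 7.55 TPM as the lower value of FGF4 and 7.24 TPM as the higher value of DPPA2. The library with the higher FGF4 was replicate 2, and the library with the higher DPPA2 was replicate 1.

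The place of UTF1 depended on the table. Its reads were far fewer than its TPM and length predict, with a log2 ratio of reads to prediction of -1.76 in replicate 1 and -1.93 in replicate 2. For the other 9 genes this ratio was between -0.48 and 0.26, and over all genes that reached 10 TPM in each library the median was 0.08. Of the 5 members at that level, UTF1 was the only one over 2-fold from the prediction, where 9.57% of all such genes were. On reads per kb of the leading transcript, UTF1 was at 23.4 and 19.6 CPM per kb and ranked below TRIM71 at 38.6 and 31.1 and SALL4 at 25.1 and 22.5. The level of UTF1 relative to these is therefore uncertain.

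**Figure D2:**
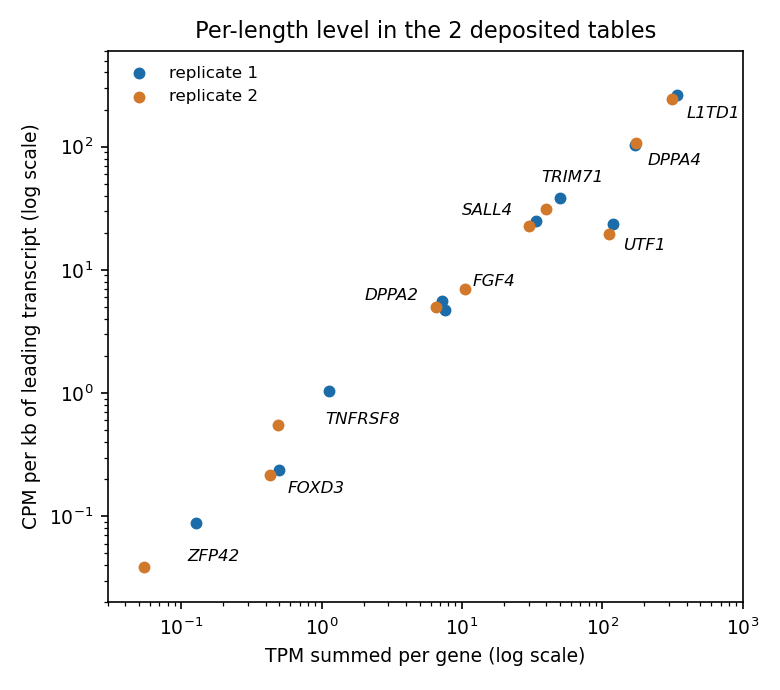
CPM per kb of the leading transcript from the gene table (vertical, log axis) against TPM summed per gene from the transcript table (horizontal, log axis), 1 point per library for each of the 10 genes. UTF1 lay below the other genes of like TPM, at 119 and 112 TPM but 23.4 and 19.6 CPM per kb.

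The libraries were then compared with each other. An exact binomial test on reads (edgeR, TMM scaling, Benjamini-Hochberg adjustment over 15299 genes) compares 2 libraries, not conditions, and its differences have no replicate check. ZFP42 had too few reads to be tested. Of the other 9 genes, 6 passed an adjusted p of 0.05, 5 of them lower and FGF4 higher in replicate 2. Over all genes tested 13.1% passed, 6.35% lower and 6.78% higher. The share called was larger at higher levels: 4.79% of genes with a mean of 1 to 10 CPM passed, 13.4% from 10 to 100 CPM and 35.9% from 100 to 1000 CPM.

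FGF4 was higher, with 1.50 times as many scaled reads in replicate 2 (95% exact interval, 1.31 to 1.73; exact binomial test in edgeR, adjusted p = 1.2e-07). TRIM71 was lower at 0.809 times (0.782 to 0.836; exact binomial test in edgeR, adjusted p = 5.6e-33). TNFRSF8 was lower at 0.537 times, with a wide interval from 0.332 to 0.852 (exact binomial test in edgeR, adjusted p = 0.043). UTF1 stood at 0.844 times (0.750 to 0.949), SALL4 at 0.902 times (0.856 to 0.950) and L1TD1 at 0.928 times (0.911 to 0.945), with adjusted p of 0.036, 0.0017 and 3.4e-13 in the exact binomial test in edgeR. DPPA4 at 1.04 times (1.00 to 1.07) and DPPA2 at 0.905 times (0.726 to 1.13) did not pass, and the interval of FOXD3 ran from 0.353 to 2.30. On the log2(value + 1) scale the difference of UTF1 was -0.24 from reads (CPM) but -0.086 from TPM. With no filter on low counts, UTF1 and TNFRSF8 no longer passed (adjusted p of 0.058 and 0.073), and with the deposited factors TNFRSF8 did not (adjusted p of 0.054).

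TRIM71 has 8685 bases of exons, and long genes were on the whole slightly lower in replicate 2. Over 3022 tested genes with at least 8000 bases of merged exons the median log2 difference was -0.034 and 11.5% were called lower. The log2 difference of TRIM71, at a pseudocount of 1 CPM, was -0.31. The part of length in it was not tested. Among the 2 lists of pluripotency genes, the genes called lower in replicate 2 were TFCP2L1, ZSCAN10, LIN28A, DNMT3B, JARID2 and DNMT3L, and those called higher were POU5F1 and PODXL.

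**Figure D3:**
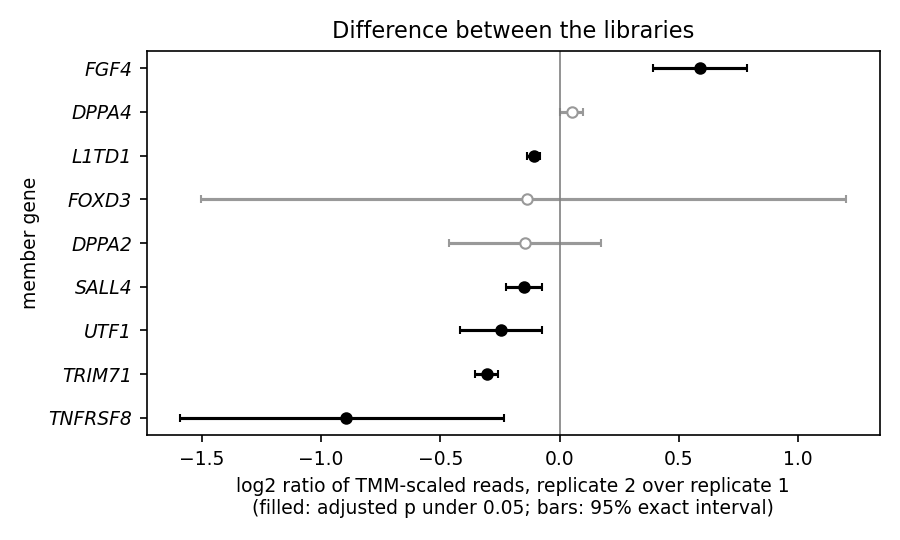
Ratio of TMM-scaled reads in replicate 2 over replicate 1 (log2) for the 9 genes tested, with 95% exact intervals that cover counting error only; filled points passed an adjusted p of 0.05. FGF4 lay at 1.50 times, and TRIM71 and TNFRSF8 at 0.809 and 0.537 times on the linear scale.

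Transcripts were examined in the TPM table, for which the depth per transcript is unknown. Of the 10 genes, 5 had 1 matched transcript and 5 had several. SALL4-201, which codes for the long form of 1053 codons, held 89.1% and 91.1% of SALL4 TPM in replicates 1 and 2. SALL4-203, the short coding form of 616 codons, held 6.79% and 4.50%. DPPA4-201 held 78.0% and 75.9% of DPPA4 TPM. Transcripts annotated as retained intron took 16.8% and 18.3% of it, the largest such share among the 10 genes, since none of the other 9 has a matched transcript of that class. FGF4-201 held 90.6% and 100%. For TNFRSF8 the TPM went to different transcripts, TNFRSF8-202 and TNFRSF8-201 in replicate 1 and TNFRSF8-203 in replicate 2. TNFRSF8 had 59 and 29 reads, and 1.14 and 0.490 TPM in all. The TPM of ZFP42 was assigned to ZFP42-203, a transcript of 1 exon, with 0 on the spliced ones.

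**Figure D4:**
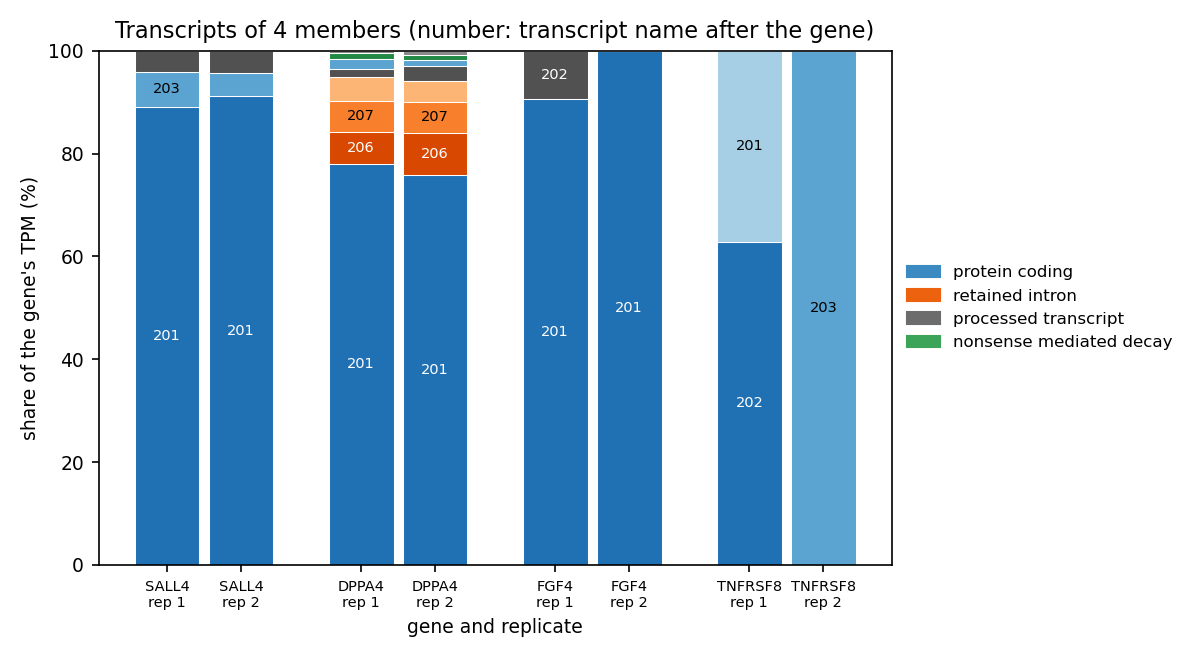
Share of each gene's TPM (%) held by its annotated transcripts in replicates 1 and 2, for SALL4, DPPA4, FGF4 and TNFRSF8; colours mark the annotated class and shades the transcript. SALL4-201, DPPA4-201 and FGF4-201 led in both libraries, whereas TNFRSF8 had no transcript in common between them.

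No reads were counted in annotated pseudogene copies. The gene table holds 11 annotated pseudogenes of DPPA2, DPPA4 and SALL4, and 0 of them had a read or a TPM above 0 in either library. For a gene at 0 the depth leaves room for 0.124 CPM in the first library and 0.135 CPM in the second.

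The other genes of the network were taken from lists of core and naive factors and of primed and embryonal carcinoma genes. Of the 14 core and naive factors, 10 were detected. POU5F1 was at 1891 and 1921 CPM and, with 2130 ± 40.1 TPM (SD, n = 2), above L1TD1. NANOG was at 704.8 and 690.7 CPM. Per length, at 575 ± 41.5 TPM (SD, n = 2), NANOG was above L1TD1 too. Pseudogene copies of POU5F1 and NANOG are nearly identical to them, which makes these counts uncertain. Also in this list, KLF4 was at 145.4 and 137.4 CPM, TFCP2L1 at 142.4 and 117.2 CPM, PRDM14 at 78.9 and 71.8 CPM and KLF5 at 67.0 and 68.7 CPM. SOX2 at 0.994 and 1.08 CPM fell just short of detection, KLF17 and NR5A2 were not detected, and DPPA5 had 0 reads. ESRRB at 1.70 and 1.62 CPM and DPPA3 at 2.03 and 1.44 CPM, of the same list, were detected at low level.

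Of the 14 primed and embryonal carcinoma genes, 13 were detected, all but ZIC2 with 2 and 0 reads. By mean TPM the highest were LIN28A at 162 ± 8.74, TDGF1 at 129.6 ± 6.94, PODXL at 111 ± 9.85 and DNMT3L at 75.9 ± 19.6 (SD, n = 2 each). The tested genes of the core and naive list had a median log2 difference of -0.042 between the libraries, with 1 higher and 2 lower of 11 called. Those of the primed list had a median of -0.083, with 1 higher and 4 lower of 13 called. The 9 tested genes among the 10 had -0.13 and all tested genes -0.0074. For comparison, 13.1% of all tested genes were called, and 35.9% of those with a mean of 100 to 1000 CPM.

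Markers of cell types were then examined. Their lists were chosen with earlier results of these data known, so they are no independent check of cell identity. All 10 seminoma markers were detected. TFAP2C was at 1255 and 1247 CPM and PDPN at 494.5 and 511.7 CPM. In TPM, TFAP2C at 619 ± 2.41 (SD, n = 2) was above L1TD1 at a mean of 327. ALPL was at 465 and 472.5 CPM and SOX17 at 142.6 and 146.5 CPM. ALPP, the lowest, was at 1.08 and 1.44 CPM. Detection alone does not set these markers apart, since 13 of the 14 primed and embryonal carcinoma genes were detected too. By the same rule 61.7% of all protein-coding genes were detected. Of 11 yolk sac and trophoblast markers 5 were detected, led by GPC3 at 39.9 and 47.4 CPM, and AFP and CGB3 had 0 reads. The summed level of that list was 69.2 and 79.5 CPM. Of 10 markers of testis somatic cells 3 were detected, with a summed 55.6 and 50.1 CPM, and DHH had 0 reads. GATA4 gave 39.8 and 38.5 CPM of that sum, SOX9 7.79 and 4.68 CPM and AMH 6.01 and 5.81 CPM. Of 9 markers of fibroblasts, endothelium and leukocytes 5 were detected, with a summed 472.2 and 444.6 CPM. COL1A2 gave 455.2 and 423.8 CPM of that sum, against 9.28 and 11.2 CPM for COL1A1, and PTPRC and CD3E had 0 reads. The part of other cell types in the levels of the 10 genes was not tested.

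**Figure D5:**
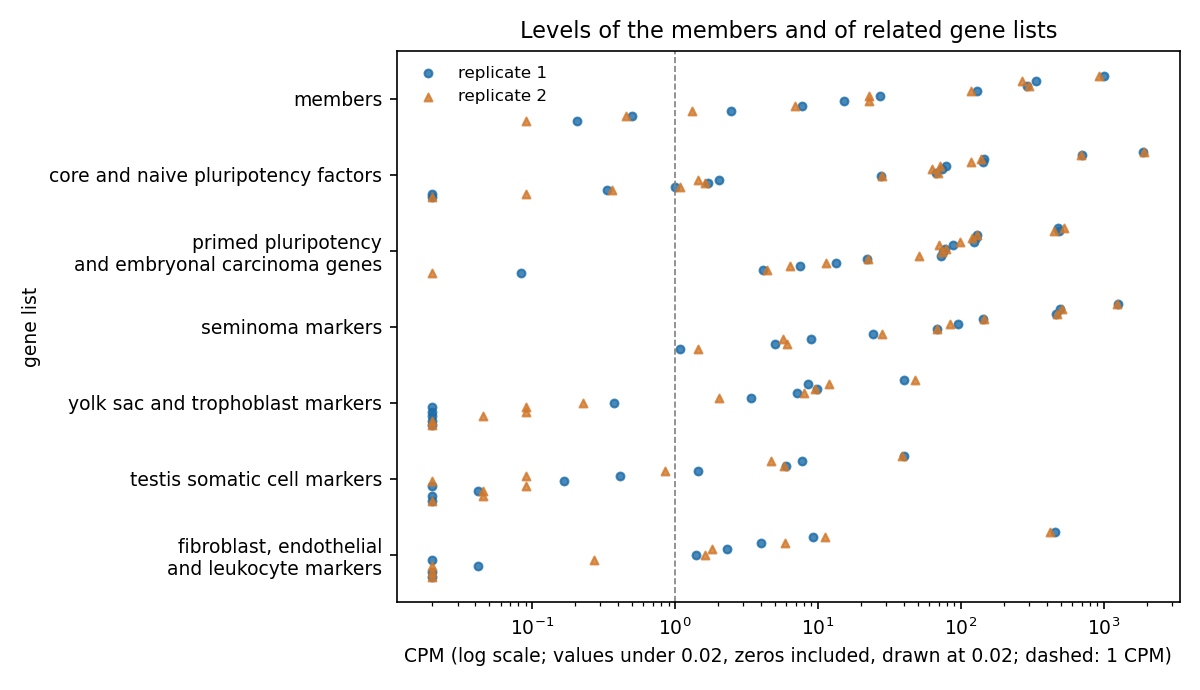
CPM (log axis) of every gene in 7 lists (members: the 10 genes), with circles for replicate 1 and triangles for replicate 2; values under 0.02 are drawn at 0.02 and the dashed line is 1 CPM. All 10 seminoma markers lay above the line, and FOXD3, ZFP42, KLF17, NR5A2, DPPA5 and ZIC2 were among the genes below it.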

How the data were processed

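The members and gene lists were chosen with earlier results of these data known. Trim Galore 0.6.10, STAR 2.7.11a, Salmon 1.10.2 and DESeq2 with GRCh38 and hg38 are listed in the submitters' processing notes, with no role or order; the counting and annotation are not given in the sources used here. One deposited table gives TPM per transcript. The other, named CPM, holds a deposited signal, reads over a scaling factor of each library: 100% of its values above 0 were whole multiples of 1.02 in replicate 1 and 1.12 in replicate 2 (tolerance 0.001), and reads were recovered with those steps. Symbols came from a table of gene names. GENCODE 29 on GRCh38 held 201667 of 251955 transcripts, which carried 94.8% of TPM in each library, so TPM per gene leaves newer transcripts out. With 1 library a side a quasi-likelihood fit has no residual degrees of freedom, so the exact binomial test was run in edgeR 4.0.16 with TMM and filterByExpr. It was tried on simulated pairs of libraries that held counting error only. That trial therefore cannot show how the test behaves with the spread between real replicates. Alternatives used DESeq2 1.42.0 size factors. Named genes were the 10 members, listed genes, copies and overlapping genes, and DDX53; with 2 libraries no likeness of pattern was measured. The 4 highest genes of a list, those above the highest member in CPM and those at 0 were named first. Other listed genes were named after their values were seen. Intervals and the limit of 3 reads cover counting error only. Files left 0 columns of samples unused.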

Additional observations from a re-analysis of the deposited data

How the results depend on the processing

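No paired analysis was possible because there is no second group here. The number of the 10 genes detected was 8, and it was 9 at 0.1 CPM, 7 at 5 CPM, 7 by TPM and 8 in each library alone. The order by TPM was the same in each library alone and with coding transcripts only, whereas 8 of 10 places were kept with reads per kb of merged exons and 7 with reads per kb of the leading transcript. The genes beyond counting noise numbered 6 of 9, with 5 under the deposited factors and 4 with no filter on low counts. Over all genes the count was 2008, and from 1716 to 2019 under the alternatives. With merged exon length in the prediction, 3 of the 5 members of at least 10 TPM lay over 2-fold from it (SALL4, L1TD1 and TRIM71) instead of 1 (UTF1), and the median over all genes of that level was 0.49 and 0.48 in place of 0.08. UTF1 was then at -0.34 and -0.52, below that median. UTF1, L1TD1 and TRIM71 have 1 matched transcript each, whose length equals the merged exon length. Their own prediction was therefore unchanged, and their ratios shifted only because the total over all genes did. This count thus shows no departure of L1TD1 or TRIM71 of their own. The share of all genes over 2-fold in this setting was not counted. Depth limits FOXD3, ZFP42 and TNFRSF8.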

Other observations

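The protein-coding genes next to the 10 genes were looked at after the values above had been seen. UTF1 lies between KNDC1, 3861 bases away and with 376 and 311 reads, and VENTX, 5845 bases away and at 102.6 and 97.1 CPM. VENTX encodes a homeobox factor. TRIML2, the neighbour of ZFP42 at 86.2 kb, was at 67.9 and 61.3 CPM, while ZFP42 had 5 and 2 reads. On the side of TRIM71 away from CNOT10, the gene CCR4 had 0 and 2 reads at a distance of 53.7 kb, and CNOT10 was at 51.1 and 50.7 CPM. The neighbours of L1TD1 were PATJ, at 50.1 and 49.8 CPM, and KANK4, at 18.9 and 18.8 CPM. TNFRSF1B, 22.8 kb from TNFRSF8 and another gene of the TNF receptor family, had 50 and 24 reads, beside 59 and 29 reads of TNFRSF8. MIIP, the neighbour on the other side, had 955 and 849 reads. Whether TNFRSF8 and TNFRSF1B differ together between libraries was not tested.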
